A study of Mus musculus with 27 samples.

Results

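Clone gs2_F6 is a line of 4T1 cells, a mouse mammary carcinoma line that spreads readily in mice, in which the gene Fis1 was targeted with CRISPR-Cas9, and it was set here against the parental 4T1 cells. The columns that carry the code Fis_gs2_F6 (3 libraries) were compared with the 3 untargeted parental columns, of 27 libraries in the series, over 13940 tested genes of 55401 in the table. The other groups used are gs1_B11, the second Fis1 knockout clone, the Drp1 knockout clones gs1B8 and gs2_B4, the Mff knockout clones gs1_B4 and gs1_C8, and wild-type 4T1 cells kept with the vehicle DMSO, each with 3 libraries. Each knockout group is a single clone, so that the loss of the targeted gene and the history of that clone cannot be told apart. The labels do not say which code is clone 1 or clone 2, and they name no separate cultures, so p-values reflect the spread between these libraries, which may be technical.

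FIS1 is a small protein anchored in the outer membrane of mitochondria. Mitochondria divide when the dynamin-like GTPase DRP1, encoded by Dnm1l, is recruited to that membrane by receptors such as MFF, and they join through the mitofusins MFN1 and MFN2 and the inner-membrane GTPase OPA1. In mammalian cells FIS1 has been tied mostly to stress-related division and to the turnover of mitochondria, and MFF to division in general.

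Library totals in the parental and gs2_F6 groups ran from 20715428 to 31295937 counts. Genes of ribosomal RNA took 2.16% to 2.65% of the counts in parental and 2.57% to 3.35% in gs2_F6 libraries, and 6.40% in gs1_B11 replicate 1, which stood apart from its group (chi-square per degree of freedom of 44.2 and 36.7 against the other 2 replicates, and 3.92 to 11 between the replicates of parental and of gs2_F6). No pair of replicates agreed within sampling noise. In the DMSO libraries, which were not part of that check, ribosomal RNA genes took 4.08%, 3.92% and 25.4% of the counts. DMSO levels below are means that include the last of these libraries. Markers of other cell types stayed low: Adgre1, Tyrobp, C1qa, C1qb, C1qc and Lyz2 of macrophages, Cd3e and Ms4a1 of lymphocytes, and Dcn, Lum and Col3a1 of fibroblasts had 0 counts in all 6 libraries. The 12 macrophage and myeloid markers together reached 15.1 to 17 CPM (counts scaled to a common library total, with TMM factors) in parental and 24.2 to 26.2 CPM in gs2_F6, and of the 3 tested, Cd14 and Cd68 rose and Csf1r fell (Cd68 with an adjusted p of 0.014, and of 0.067 without gs2_F6 replicate 3). Of 12 markers of the mammary carcinoma line, Krt5 and Pgr had 0 counts, while Krt7, Krt8 and Krt18 were abundant.

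The targeted gene was checked first. Fis1 (ENSMUSG00000019054.13, GRCm38, chromosome 5, 136953275 to 136966234) stood at 44.6, 45.5 and 52.5 CPM in the parental libraries and at 16.3, 18.7 and 16.4 CPM in gs2_F6. The groups did not overlap, and gs2_F6 kept 36.0% of the parental level (log2 -1.47 ± 0.09, SE, n = 3, adjusted p = 1.5e-10, edgeR quasi-likelihood test). The RNA that remained does not show whether protein was made. Of the 7 other tested genes that start within 300 kb of Fis1, 0 rose and 1 fell, 4933404O12Rik, from 22 to 17.8 CPM (log2 -0.31 ± 0.09, adjusted p = 0.014). The nearest other neighbours gave log2 values of 0.15 for Ift22, 0.06 for Znhit1 and -0.12 for Plod3, none of them called.

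Of the 13940 genes tested against parental, 4365 were called at an adjusted p below 0.05, which is 31.3%. The calls split into 1826 higher (13.1%) and 2539 lower (18.2%), and these shares are the background for each count of genes below. Most changes were small, with a median size of 0.35 on the log2 scale among called genes. Changes beyond 2-fold were more often downward: 677 genes fell and 157 rose by that much. The median of all genes tested was -0.01.

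**Figure D1:**
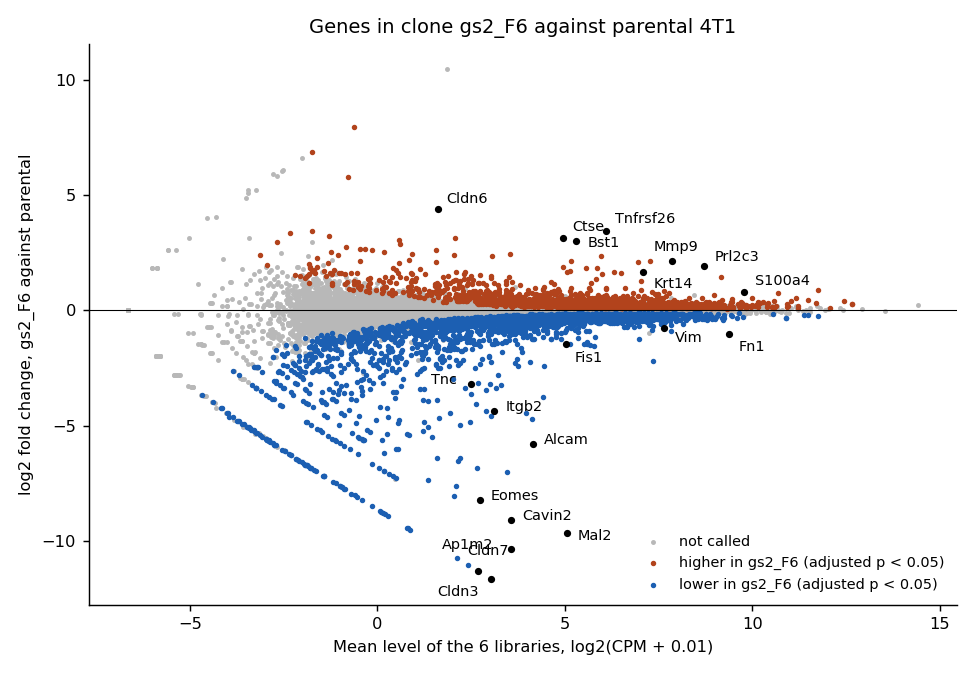
Log2 fold change of gs2_F6 against parental (vertical axis) by the mean level of the 6 libraries, log2(CPM + 0.01) (horizontal axis), with 1 point per tested gene, called genes in color and named genes in black. Genes such as Cldn3 and Cldn7 lie far below the rest, and the fitted fold of a gene with 0 counts in gs2_F6 depends on the prior count and is not a bound.

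The deepest losses left genes at or near 0 in gs2_F6. Of genes with at least 5 CPM in parental, 10 had at most 3 counts over the 3 gs2_F6 libraries. Cldn3 and Cldn7, which encode claudins that seal tight junctions between epithelial cells, had 0 counts in gs2_F6 against 14.7, 17.6 and 16.8 CPM and 13.1, 12.8 and 12.6 CPM in parental. Taking 3 counts in the group as the floor, Cldn3 was at least 428-fold lower and Cldn7 at least 335-fold lower. Zfp518b, a zinc finger gene, and Vgll3, a cofactor of TEAD transcription factors, also had 0 counts and were at least 275-fold and at least 225-fold lower. The other 6 genes kept 1 to 3 counts in all. Ap1m2, the epithelial subunit of the AP-1 clathrin adaptor that sorts proteins to the basolateral membrane, fell from 25.9, 21.6 and 23 CPM to 1 count in all (a ratio of 1826, 95% counting interval 327 to 72152). Cavin2, a coat protein of caveolae, fell from 20.8, 22.4 and 27.6 CPM to 3 counts (ratio 615, interval 210.0 to 2984). Eomes, a T-box transcription factor, had a ratio of 344 (interval 117 to 1671), Myo5c, an unconventional myosin of secretory epithelia, 320 (88.3 to 2653), Bspry 221 (75.1 to 1073) and Sulf2, an extracellular sulfatase that trims heparan sulfate, 198 (54.5 to 1643). These intervals and floors cover counting error only.

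Which clones lacked these genes differed from gene to gene. Cldn3 and Cldn7 had at most 1 count in each of the other 5 clones, whereas the DMSO-treated wild-type cells held 13.6 and 10.1 CPM, near the parental level. Ap1m2 and Bspry had at most 2 counts in gs1_B11, gs1B8 and gs2_B4 but 16.6 and 2.20 CPM in gs1_B4 and 53.2 and 14.7 CPM in gs1_C8. Cavin2, Myo5c and Vgll3 were above 3 counts in all 5 other clones, with Vgll3 at 9 counts in gs1_B11 and 5 in gs1B8. Cavin2 stood at 2.45 CPM in gs1_B11 and 30.8 CPM in gs2_B4, and Eomes at 16.5 CPM in gs1_B11 and 1 count in gs2_B4. In the other direction, 1 gene had 0 counts in parental and at least 5 CPM in gs2_F6: the predicted gene Gm6565, at 4.15, 0.0978 and 17.6 CPM in the 3 gs2_F6 libraries. Its libraries differed widely and it was not called (adjusted p = 0.21, edgeR), though it was called by DESeq2 (adjusted p = 8.5e-07) and with no low-count filter, and the DMSO cells held 1.35 CPM.

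Promoter windows are shown for the 2 claudins and for Ap1m2, which were near 0 together in gs2_F6, gs1_B11 and both Drp1 clones. Bspry shared that pattern and is not shown, and of the 2 starts of Cldn7 only 1 is shown. Each window shown holds the hexamer described below, so they do not stand for all windows of the genes near 0. RefSeq (GRCm38.p6) gave 12 windows of 300 bases, from 250 before to 50 after a start, for all 10 of the genes near 0. Capitals mark CACCTG or its reverse complement CAGGTG, the E-box that ZEB and SNAI repressors of epithelial genes are known to bind. The windows are Ap1m2, chr9:21312284-21312583, minus strand, Cldn3, chr5:134985964-134986263, plus strand, and Cldn7, chr11:69965171-69965470, plus strand, each 5′ to 3′.
Ap1m2: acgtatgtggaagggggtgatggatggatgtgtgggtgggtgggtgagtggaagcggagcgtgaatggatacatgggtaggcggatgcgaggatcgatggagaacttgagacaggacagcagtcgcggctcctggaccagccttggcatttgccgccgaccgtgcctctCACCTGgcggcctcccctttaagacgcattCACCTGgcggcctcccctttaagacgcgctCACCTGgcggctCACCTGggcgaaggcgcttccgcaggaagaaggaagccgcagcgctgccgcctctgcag
Cldn3: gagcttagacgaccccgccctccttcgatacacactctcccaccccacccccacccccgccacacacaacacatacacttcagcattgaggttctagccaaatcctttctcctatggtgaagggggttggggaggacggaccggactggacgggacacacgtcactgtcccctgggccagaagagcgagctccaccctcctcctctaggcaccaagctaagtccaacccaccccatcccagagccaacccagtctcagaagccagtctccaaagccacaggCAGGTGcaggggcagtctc
Cldn7: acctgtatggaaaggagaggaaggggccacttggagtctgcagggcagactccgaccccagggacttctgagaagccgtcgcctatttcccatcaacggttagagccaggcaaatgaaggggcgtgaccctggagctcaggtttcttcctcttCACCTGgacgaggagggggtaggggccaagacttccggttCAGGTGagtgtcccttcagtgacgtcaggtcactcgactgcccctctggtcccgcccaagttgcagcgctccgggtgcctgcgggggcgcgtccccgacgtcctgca
Ap1m2 held 4 such hexamers, Cldn7 2 and Cldn3 1. Of the 12 windows, 5 held at least 1 on either strand, among them Bspry and 1 of the 2 starts of Sulf2. The other 7 held none, among them the other start of Cldn7 (chr11:69964529-69964828), which is the annotated start of the gene. The hexamer was found in 17.8% of 12322 windows of tested genes. AACCNGTT, the motif of Grainyhead-like factors of epithelia, was in 0 of the 12 windows and in 1.87% of those of tested genes. CG dinucleotides numbered 4 (Cavin2) to 26 (1 start of Sulf2) per window, with a median of 16, and the median over tested genes was 21 (quartiles 12 and 29). A match describes the letters only, and neither binding nor methylation was measured.

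Among other genes that fell far, Mal2, a membrane protein of epithelial transcytosis, went from 75.1, 66.5 and 58.5 CPM to 0.208, 0.0326 and 0 CPM (log2 -9.67 ± 0.23, adjusted p = 1.5e-16). Mal2 was also low in gs1_B11 (6.36 CPM), gs1B8 (0.0264 CPM) and gs2_B4 (0.0387 CPM), but stood at 53.7 CPM in gs1_B4 and 197 CPM in gs1_C8. Amot, the angiomotin that binds YAP at junctions, fell from 12.5 to 0.106 CPM (log2 -6.86 ± 0.23). Rps6ka6, the kinase RSK4, fell from 22.8, 23.9 and 18.9 CPM to 0.208, 0.228 and 0.0427 CPM (log2 -7.0 ± 0.25). Marcks, a membrane-bound substrate of protein kinase C, fell from 10.4, 8.82 and 7.23 CPM to 0.0415, 0.0978 and 0.128 CPM (log2 -6.54 ± 0.24). In all 4 the highest gs2_F6 library lay far below the lowest parental library.

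The genes that rose most were of mixed kinds. Cldn6, a claudin of embryonic epithelia, rose from 0.0481, 0.321 and 0.414 CPM to 5.53, 6.39 and 5.5 CPM (log2 4.43 ± 0.24, adjusted p = 1.9e-11), while Cldn3 and Cldn7 were lost. Tnfrsf26, a member of the TNF receptor family, rose from 9.62, 10.2 and 13.8 CPM to 113, 115 and 144 CPM (log2 3.47 ± 0.21). Ctse, the aspartic protease cathepsin E, rose from 5.05, 6.17 and 7.37 CPM to 56.2, 57.4 and 52.3 CPM (log2 3.15 ± 0.12). For each of these, the lowest gs2_F6 library lay above the highest parental library. Bst1, an ADP-ribosyl cyclase at the cell surface, rose from 9.09, 8.38 and 8.89 CPM to 71.3, 69.9 and 69.5 CPM (log2 3.00 ± 0.09). Mmp9, a gelatinase that cuts basement membrane collagen, rose from 84.8, 94.2 and 77.1 CPM to 371, 400.0 and 355 CPM (log2 2.14 ± 0.15). Prl2c3, a placental hormone of the prolactin family, rose from 145, 184 and 191 CPM to 666, 712 and 611 CPM (log2 1.94 ± 0.16), and members of that family are near-identical, so counts may be split among them. The same holds for the serpins Serpinb6b (log2 2.35 ± 0.12) and Serpinb9b (2.44 ± 0.25), inhibitors of serine proteases with close copies. Bcl2l15, a BCL2 family member, rose from 37.3, 44.3 and 57.6 CPM to 194, 202 and 201 CPM (log2 2.10 ± 0.17).

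Several of these genes were also high in other clones. Ctse stood at 122 CPM and Bst1 at 69.7 CPM in the Mff clone gs1_C8, and Mmp9 at 375 CPM in gs1_B11 and 357 CPM in gs1B8. Tnfrsf26 stood at 52.6, 56.4 and 70.9 CPM in gs1_B11 and at 4.23 to 20.2 CPM in the other 4 clones. All other clones had lower means than gs2_F6 for S100a14, an S100 calcium-binding protein of epithelia, which rose from 3.8, 2.45 and 1.89 CPM to 16.8, 16 and 9.3 CPM (log2 2.38 ± 0.23), the highest of them being gs1_C8 at 5.49 CPM.

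**Figure D2:**
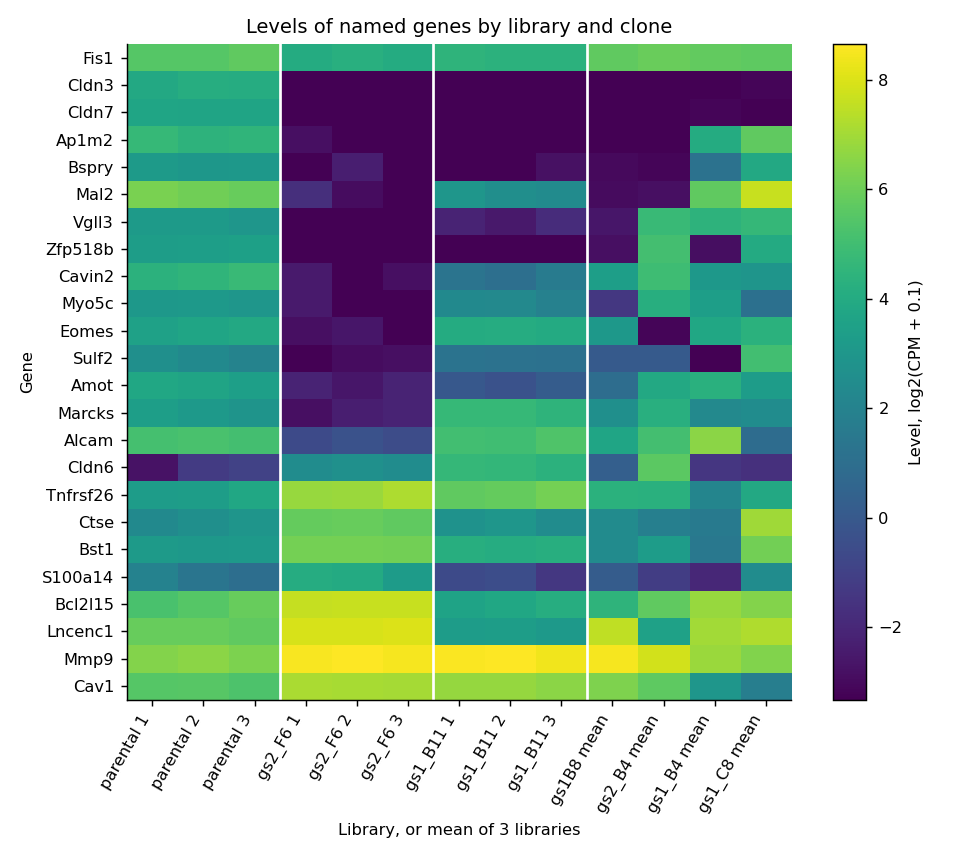
Levels, log2(CPM + 0.1), of 24 named genes (rows) in each parental, gs2_F6 and gs1_B11 library and as means of 3 libraries in the other 4 clones (columns). The rows of Cldn3 and Cldn7 are dark in all clones, the rows of Cavin2 and Eomes are dark in gs2_F6 and brighter in gs1_B11, and Cldn6 is dark in parental, brighter in gs2_F6 and brightest of these 3 groups in gs1_B11.

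Calls were spread unevenly over the chromosomes. On chromosome 8, 467 of 735 tested genes fell and 11 rose, with a median log2 fold change of -0.29, and all 69 windows of 50 neighbouring tested genes had a median below 0. On chromosome 9, 325 of 781 fell and 31 rose (median -0.20), and on chromosome 10, 217 of 645 fell and 12 rose (median -0.14). In the other direction, 340 of 1090 genes on chromosome 2 rose and 98 fell (median 0.13), 199 of 500 on chromosome 14 rose and 43 fell (0.15), and 169 of 382 on chromosome 18 rose and 27 fell (0.20). Each gs2_F6 library showed this. Relative to the parental mean, the median gene of chromosome 8 stood at -0.274, -0.291 and -0.292 in the 3 gs2_F6 libraries and between -0.010 and 0.014 in the parental libraries. The median gene of chromosome 9 stood at -0.191, -0.180 and -0.180, and of chromosome 18 at 0.170, 0.170 and 0.202. With 3 libraries against 3 no exact permutation test of such a value can go below p = 0.1, and these chromosomes were singled out after their values were seen.

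**Figure D3:**
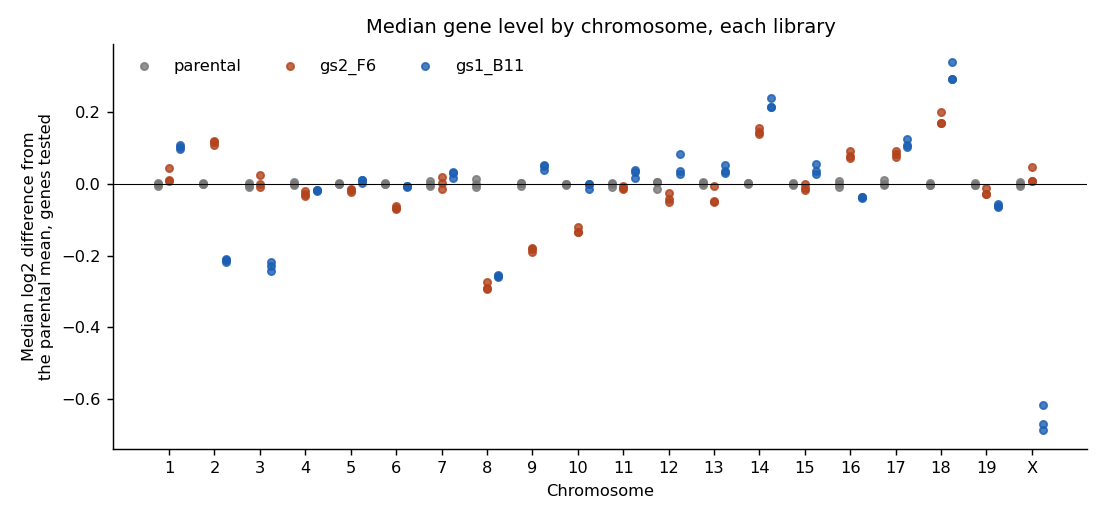
Median log2 difference from the parental mean over the tested genes of each chromosome (vertical axis), with 1 point per library of parental, gs2_F6 and gs1_B11. The gs2_F6 points lie below 0 on chromosomes 8, 9 and 10 and above 0 on 2, 14 and 18, while gs1_B11 lies below 0 on 2, 3, 8 and X and above 0 on 14 and 18.

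The shift on chromosome 9 was at its ends. The first 16 windows, from 3335140 to 44336077, had medians of -0.45 to -0.23, the next 41, up to 107289877, had medians of -0.18 to 0.01, and the last 17, from 102584588 to 124312696, had medians of -0.39 to -0.32. Of the genes near 0 in gs2_F6, Ap1m2 lies in the first stretch, Myo5c in the middle and Eomes in the last. On chromosome 14 the first 32 windows had medians of -0.09 to 0.17 and the last 14, from 60210974 to 122984035, had medians of 0.27 to 0.42. Chromosome 8 was low along its length, with medians of -0.42 to -0.17. Shorter stretches stood out on chromosome 13, where 4 windows from 55727368 to 67360605 had medians of -0.28 to -0.25, and on chromosome 11, where 2 windows from 69913888 to 73199042 reached 0.26. The windows overlap, and the boundaries come from a limit of 0.2 set after the values were seen. DNA copy number was not analysed here, and what lies behind these shifts was not tested.

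**Figure D4:**
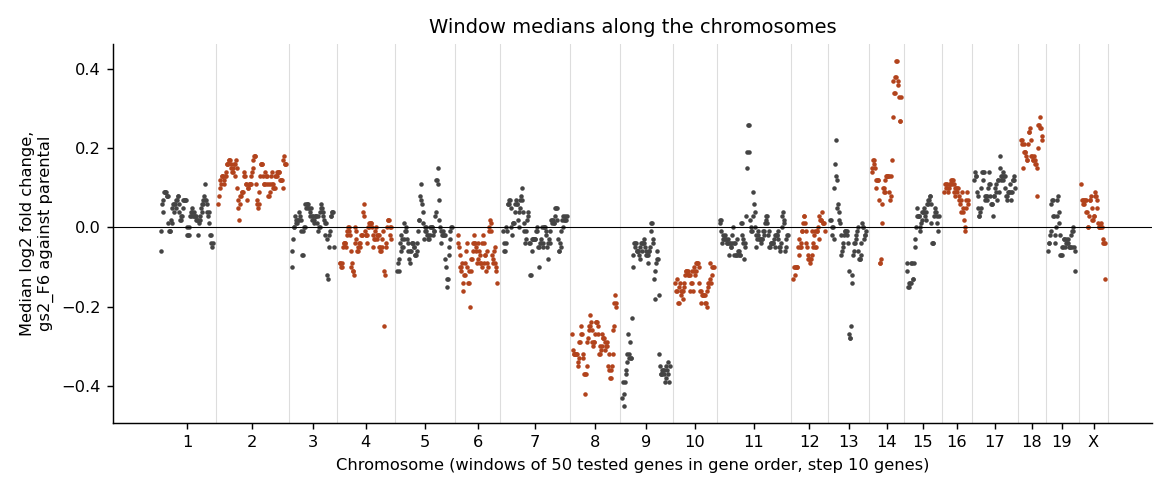
Median log2 fold change of gs2_F6 against parental (vertical axis) in windows of 50 tested genes, moved by 10 genes at a time, in gene order along chromosomes 1 to 19 and X (horizontal axis, neighbouring chromosomes in alternating color). Both ends of chromosome 9 lie near -0.4 and its middle near 0, the far part of chromosome 14 reaches 0.42, and chromosome 8 is below 0 throughout.

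The clones differed in which chromosomes were shifted. The median gene of chromosome 8 was below parental in all 6 clones, from -0.221 in gs1_C8 to -0.536 in gs2_B4. The median of chromosome 9 was -0.076 to 0.047 in the other 5 clones, and that of chromosome 2 was -0.213 in gs1_B11 and 0.098 in gs1_B4. Chromosome 10 was also low in gs1_B4 (-0.149) and gs1_C8 (-0.131), and at -0.047 to 0.062 in the other 3. Chromosome 14 was at 0.143 to 0.242 in gs1_B11, gs1B8, gs2_B4 and gs1_C8 and at -0.193 in gs1_B4. Chromosome 18 was at 0.308 in gs1_B11, above gs2_F6, and at -0.041 to 0.063 in the other 4. Chromosome X was close to parental in gs2_F6 (0.007, 0.007 and 0.047 in the 3 libraries) and at -0.658 in gs1_B11 and -0.644 in gs1_B4. Chromosomes 8 and 9 held 10.9% of the genes tested and 31.2% of the genes called lower, and chromosomes 2, 14 and 18 held 14.1% of the genes tested and 38.8% of those called higher. With chromosome 10 left out as well, 24.7% of the remaining 9807 genes were called, 10.8% higher and 13.9% lower. Counts for gene lists are therefore also given for members off chromosomes 2, 8, 9, 10, 14 and 18, an alternative added after the data were seen. The limit was a median beyond 0.1 either way on an autosome or X, so chromosomes 16 and 17, each at 0.09, were not left out. On chromosome 17, 151 of 686 genes rose and 46 fell, and on chromosome 16, 98 of 423 rose and 33 fell.

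Genes of the mitochondrial division machinery held calls in both directions, beside 31.3% called among all genes tested. Of 21 tested members 2 rose, 5 fell and 14 were not called, with a median of -0.03, and off the shifted chromosomes 0 rose and 3 fell of 15. Mtfp1, an inner-membrane protein that promotes division, fell from 2.36, 2.08 and 2.53 CPM to 0.665, 0.619 and 0.384 CPM (log2 -2.04 ± 0.22, adjusted p = 5.1e-07), and the groups did not overlap. The third member to fall off the shifted chromosomes, after Fis1 and Mtfp1, was Akap1, a scaffold for protein kinase A on the outer membrane, which went from 82.6 to 75.3 CPM. Dnm2, a dynamin (log2 -0.43 ± 0.06), lies on chromosome 9, and Spire1, an actin nucleator (0.38 ± 0.05), on chromosome 18. Dnm1l stood at 220.0, 217 and 226 CPM in parental and 230.0, 232 and 257 CPM in gs2_F6 and was not called (log2 0.12 ± 0.05, adjusted p = 0.064), though it passed in 5 of 12 alternatives, with adjusted p of 0.031 to 0.044. Mff was not called either (0.08 ± 0.06, adjusted p = 0.34).

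Genes of fusion and cristae gave 3 higher and 2 lower of 20, with a median of 0.04. Mfn1 (log2 0.04 ± 0.04), Mfn2 (-0.10 ± 0.06) and Opa1 (0.08 ± 0.04) were not called, and the parental and gs2_F6 libraries overlapped for Mfn2 and Opa1. Without parental replicate 3, Mfn2 passed as lower (-0.16, adjusted p = 0.036). Off the shifted chromosomes 1 rose and 1 fell of 17: Micos13, a subunit of the complex that shapes cristae (0.26 ± 0.08, adjusted p = 0.018, and 0.064 to 0.095 without parental replicate 1 or 2 or gs2_F6 replicate 1 or 2), and Msto1, a fusion factor (-0.20 ± 0.07). Micos13 lies on chromosome 17, where the median was 0.09. Afg3l2 on chromosome 18 and Yme1l1 on chromosome 2, both proteases of the inner membrane, rose, and Spg7 on chromosome 8, a partner of AFG3L2, fell by 0.48 on the log2 scale.

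Messages encoded by mitochondrial DNA gave 5 higher and 0 lower of 13, with a median of 0.31. mt-Nd1, a core subunit of complex I, rose from 4809, 4733 and 4558 CPM to 6637, 6108 and 6235 CPM (log2 0.43 ± 0.05, adjusted p = 8.3e-07). mt-Nd2 rose by 0.45 ± 0.06 and mt-Atp8, of ATP synthase, by 0.31 ± 0.06. mt-Co2 and mt-Nd3 were also called (adjusted p of 0.029 and 0.015), but mt-Nd3 was not without gs2_F6 replicate 3 (0.057) or parental replicate 2 (0.075). Mitochondrial genes took 2.88% to 3.12% of the counts in parental and 3.43% to 3.68% in gs2_F6. In gs1_B11, mt-Nd1 stood at 6328 CPM, so that gs2_F6 and gs1_B11 gave a log2 difference of 0.00 (adjusted p = 1.0). The Drp1 clones gs1B8 and gs2_B4 held 5782 and 6090 CPM of it, and the Mff clones gs1_B4 and gs1_C8 4415 and 3639 CPM, against a parental mean of 4700 CPM. Over the 13 messages, 0 were higher and 5 lower in gs2_F6 than in gs1_B11 (median -0.14). Nuclear subunits of complex I gave 5 higher and 1 lower of 36 (median 0.06), and 4 and 0 of 29 off the shifted chromosomes. Ndufb10 rose from 45 to 54 CPM and Ndufv3 from 20.1 to 24.2 CPM, and both lie on chromosome 17, where the median was 0.09.

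Energy metabolism moved in small steps. Of 20 genes of glycolysis and lactate export 5 rose and 0 fell (median 0.11), all 5 off the shifted chromosomes. Slc2a1, the glucose transporter GLUT1, rose from 44, 45 and 50.8 CPM to 60.9, 61.9 and 65.5 CPM (log2 0.43 ± 0.06, adjusted p = 1.6e-05), and Hk2, a hexokinase, from 73.6 to 87.9 CPM (0.25 ± 0.07). Aldoa (0.24 ± 0.07), Tpi1 (0.26 ± 0.08) and Pfkm (0.31 ± 0.08), enzymes of the same pathway, also rose, although the Tpi1 libraries of the groups overlapped. The calls were lost without gs2_F6 replicate 3 for Hk2 (adjusted p = 0.073), and without gs2_F6 replicate 2 or parental replicate 1 or 2 for Tpi1 (0.056 to 0.079). Genes of the TCA cycle and fatty acid oxidation gave 4 higher and 3 lower of 33, and 2 and 1 of 25 off the shifted chromosomes. Genes of cholesterol synthesis and targets of SREBP gave 4 higher and 2 lower of 29, and 2 and 1 of 22 off them. Fdft1, which makes squalene, rose by 0.63 ± 0.11 and lies on chromosome 14.

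Pyrimidine synthesis and salvage gave 0 higher and 7 lower of 23 (median -0.06), and 0 and 4 of 18 off the shifted chromosomes. Rrm2b, the p53-inducible small subunit of ribonucleotide reductase, fell from 40.3, 42.6 and 41.2 CPM to 28.3, 27.2 and 32.0 CPM (log2 -0.50 ± 0.06, adjusted p = 1.2e-06), and Rrm2, the S-phase subunit, by 0.21 ± 0.04. Tk2 (-0.85 ± 0.11), the mitochondrial thymidine kinase, and Dctd (-0.76 ± 0.06), the dCMP deaminase, lie on chromosome 8. So does Dhodh, the mitochondrial enzyme that leflunomide inhibits, which went from 19.6, 18.5 and 16.8 CPM to 15.4, 15.9 and 16.5 CPM (log2 -0.20 ± 0.06, adjusted p = 0.021). That call was lost in 7 of 12 alternatives, with adjusted p of 0.056 to 0.23, among them DESeq2 and the fits without gs2_F6 replicate 1 or 2 or parental replicate 1 or 2.

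Genes of DNA replication gave 1 higher and 15 lower of 35, with a median of -0.09, and 1 and 8 of 24 off the shifted chromosomes. The falls were shallow there: E2f8, a repressor of the E2F family, went from 74.5, 67.5 and 65.1 CPM to 55.4, 55.6 and 53.8 CPM (log2 -0.33 ± 0.05, adjusted p = 5.3e-05), and Mcm2, Mcm3 and Mcm6 of the replicative helicase fell by 0.12, 0.11 and 0.09 on the log2 scale. Gins3 (-0.71 ± 0.07), Mcm5 (-0.42 ± 0.04), Cdt1 (-0.32 ± 0.05) and Orc6 (-0.29 ± 0.06), which load or form the helicase, lie on chromosome 8. Mitosis genes gave 6 higher and 2 lower of 30, and 0 and 1 of 18 off the shifted chromosomes, where Foxm1, a driver of mitotic genes, fell by 0.25 ± 0.06. The 6 that rose, among them Bub1, Bub1b and Tpx2, lie on chromosomes 2 and 18. MYC targets and ribosome biogenesis gave 7 higher and 3 lower of 35, and 3 and 0 of 26 off the shifted chromosomes.

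Targets of p53 and genes of apoptosis, in 1 list, gave 8 higher and 2 lower of 24 (median 0.04), and 5 and 0 of 16 off the shifted chromosomes. Cdkn1a, the cell cycle inhibitor p21, rose from 14.3 to 23.3 CPM (log2 0.71 ± 0.19, adjusted p = 0.0064), Fas, a death receptor, from 2.79, 2.33 and 2.16 CPM to 4.45, 4.47 and 4.39 CPM (0.87 ± 0.20), and Bak1, a pore former of apoptosis, from 76.3 to 97.8 CPM. Mdm2 on chromosome 10 fell by 0.32 ± 0.07.

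Stress lists held calls in both directions. Targets of ATF4 gave 1 higher and 5 lower of 23, and 0 and 3 of 14 off the shifted chromosomes, with Atf5 from 10.4 to 5.93 CPM (log2 -0.81 ± 0.13). The unfolded protein response gave 2 higher and 4 lower of 23, and 0 and 1 of 15 off the shifted chromosomes. NRF2 and antioxidant genes gave 6 higher and 8 lower of 29, of which Hmox1, Nqo1, Gsr, Keap1, Gpx1 and Gclc fell and lie on chromosomes 8 and 9. Off the shifted chromosomes the antioxidant list gave 3 higher and 1 lower of 15. Hypoxia targets gave 2 higher and 6 lower of 22, and 1 and 3 of 11 off the shifted chromosomes. Among the hypoxia targets the carbonic anhydrases at the cell surface fell deeply. Car9 went from 6.35, 5.41 and 5.2 CPM to 0.457, 0.326 and 0.341 CPM (log2 -3.91 ± 0.39), and was at 0.0641 to 0.931 CPM in the other 5 clones. Car12, on chromosome 9, went from 35.5, 36.8 and 38.0 CPM to 7.60, 6.55 and 6.49 CPM (-2.42 ± 0.09), and was at 17.6 to 68.6 CPM in the other 5 clones. Heat shock and immediate early genes gave 2 higher and 5 lower of 25, and 2 and 2 of 17 off the shifted chromosomes. Mitophagy, autophagy and lysosome genes gave 8 higher and 7 lower of 34 and 3 and 2 of 22 off the shifted chromosomes, where Wipi1, an early autophagosome protein, rose from 48.3 to 70.0 CPM (0.54 ± 0.06). Peroxisome genes gave 4 higher and 4 lower of 27, and 2 and 2 of 17 off them.

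Adhesion genes of the kind used by leukocytes and endothelium had the lowest median among lists with at least 5 tested members, -0.55, with 4 higher and 8 lower of 13. Off the shifted chromosomes 4 rose and 5 fell of 9, with a median of -2.23. Alcam, an adhesion molecule of the immunoglobulin family, fell from 34.6, 37.2 and 33.2 CPM to 0.540, 0.717 and 0.597 CPM (log2 -5.79 ± 0.17, adjusted p = 1.7e-15). Itgb2, the beta chain of leukocyte integrins, lies on chromosome 10 and fell from 18.4, 14.3 and 17 CPM to 1.08, 0.750 and 0.597 CPM (-4.35 ± 0.17). Vcam1, which binds leukocyte integrins, fell from 29.0, 26.9 and 27.3 CPM to 6.31, 5.44 and 6.02 CPM (-2.23 ± 0.13). All 3 genes left no overlap between the groups. St3gal6, a sialyltransferase that helps to make selectin ligands, fell by 2.41 ± 0.10, and Selp, P-selectin, rose from 2.35 to 6.0 CPM (1.35 ± 0.22). Integrins and focal adhesion genes gave 9 higher and 5 lower of 34 (median 0.02), and 5 and 1 of 21 off the shifted chromosomes, with Itgb5, a vitronectin receptor chain, from 42.7, 41.9 and 38.5 CPM to 59.7, 59.3 and 58.4 CPM (0.53 ± 0.05), and Itgb7 from 0.301 to 2.65 CPM (3.08 ± 0.31). Itgb2 is in both lists. Itgb1, the common beta chain, lies on chromosome 8 and fell from 2111 to 1691 CPM (-0.32 ± 0.04).

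Matrix and mesenchymal genes gave 2 higher and 11 lower of 26 (median -0.01), and 1 and 6 of 12 off the shifted chromosomes, where the median was -0.52. Fn1, fibronectin, fell from 895, 972 and 827 CPM to 396, 440.0 and 478 CPM (log2 -1.04 ± 0.09, adjusted p = 1.6e-08). Tnc, tenascin C, fell from 10.3, 11.1 and 9.07 CPM to 1.04, 1.17 and 1.15 CPM (-3.17 ± 0.14). Col12a1, a fibril-associated collagen encoded on chromosome 9, fell from 14.6, 14.8 and 11.5 CPM to 1.66, 1.11 and 1.02 CPM (-3.44 ± 0.19). Twist1, a transcription factor of mesenchymal cells, fell from 7.49 to 3.27 CPM, Sparc, a matricellular protein, from 68.9 to 26.9 CPM, and Vim, the intermediate filament vimentin, from 244, 252 and 252 CPM to 145, 140.0 and 161 CPM (-0.75 ± 0.07) although it lies on chromosome 2, where more genes rose. In the DMSO-treated wild-type cells Fn1 stood at 504 CPM, Tnc at 4.02 CPM, Col12a1 at 9.11 CPM and Vim at 188 CPM. The parental means of these genes were higher, at 898, 10.2, 13.6 and 250 CPM. Twist1 went the other way, at 8.40 CPM in the DMSO cells. Snai1, a repressor of epithelial genes, rose from 5.16 to 6.92 CPM (0.43 ± 0.13). The summed level of the 11 fibroblast markers was 4.37 to 4.47 CPM in parental and 2.31 to 3.33 CPM in gs2_F6. Its 1 tested member, Pdgfra, fell by 0.68 ± 0.15, and its part in the matrix genes was not tested. Matrix proteases and their inhibitors gave 8 higher and 11 lower of 31 (median 0.04), and 3 and 8 of 18 off the shifted chromosomes (median -0.10). Mmp9 and Mmp24 (1.41 ± 0.13), both on chromosome 2, and Adam8 (0.86 ± 0.10) were higher, and Adamts1 (-0.70 ± 0.09) and Timp2 (-0.34 ± 0.05) lower.

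Epithelial genes went both ways. Of 41 tested genes of epithelial junctions and identity 14 rose and 9 fell (median 0.10), and 10 rose and 6 fell of 29 off the shifted chromosomes. Besides Cldn3, Cldn7, Ap1m2 and Mal2, the falls were of less than 2-fold. Elf3, an epithelial transcription factor, rose from 17 to 29 CPM (log2 0.78 ± 0.11), Ocln, occludin of tight junctions, from 37.6 to 50.8 CPM (0.44 ± 0.06) and Jup, plakoglobin, from 76.4 to 96.6 CPM. Cdh1, E-cadherin, was not called, at 409, 386 and 340.0 CPM in parental and 359, 368 and 343 CPM in gs2_F6. Keratins gave 5 higher and 1 lower of 10, all 10 off the shifted chromosomes, led by Krt14 of basal cells, which rose from 67.5, 69.0 and 54.3 CPM to 214, 236 and 164 CPM (1.69 ± 0.20, adjusted p = 1.7e-06), and Krt17, from 0.244 to 1.55 CPM. Krt8 and Krt18 of luminal cells were not called (0.14 ± 0.11 and 0.13 ± 0.05), though they passed in 2 and 6 of 12 alternatives.

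Caveolae genes gave 6 higher and 1 lower of 11 (median 0.18), and 4 and 1 of 9 off the shifted chromosomes. The coat gene Cavin2 was the one near 0, while Cav1, caveolin 1, rose from 45.2, 46.1 and 40.1 CPM to 141, 136 and 132 CPM (log2 1.64 ± 0.11, adjusted p = 3.9e-10), Cavin3 from 25.7 to 36.0 CPM and Cavin1 from 161 to 192 CPM. Genes of the Hippo pathway and targets of YAP and TEAD gave 4 higher and 10 lower of 30 (median -0.13), and 3 and 6 of 21 off the shifted chromosomes. Vgll3 and Amot were the deepest, Yap1 itself fell from 134, 128 and 126 CPM to 95.5, 93.2 and 95.5 CPM (-0.45 ± 0.05) and lies on chromosome 9, and F3, tissue factor, rose from 23.8 to 47.4 CPM (0.99 ± 0.09). The EGF receptor family gave 1 higher and 4 lower of 22, and 1 and 2 of 14 off the shifted chromosomes, with Areg, amphiregulin, from 36.4 to 52.6 CPM and Nrg1, neuregulin 1, on chromosome 8, from 16.7 to 10.3 CPM.

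Immune lists were mixed as well. Interferon-stimulated genes gave 2 higher and 8 lower of 40 (median -0.08), and 2 and 5 of 35 off the shifted chromosomes (median 0.07). Ifit2, which inhibits translation of viral RNA, fell from 11.1, 9.06 and 10.8 CPM to 1.33, 0.489 and 0.725 CPM (log2 -3.63 ± 0.22, adjusted p = 1.9e-10), and Oasl1 from 6.97, 5.89 and 8.24 CPM to 1.37, 1.43 and 1.88 CPM (-2.17 ± 0.27). Cytokine, chemokine and NF-kappaB genes gave 5 higher and 7 lower of 29, and 3 and 4 of 20 off the shifted chromosomes. Cxcl3, a neutrophil attractant, fell from 21.6 to 6.92 CPM (-1.64 ± 0.25). Il1a, interleukin 1 alpha, lies on chromosome 2 and rose from 50.8, 77.7 and 98.6 CPM to 167, 169 and 220.0 CPM (1.29 ± 0.38, adjusted p = 0.014, and 0.051 and 0.073 without gs2_F6 replicate 3 or parental replicate 1). Antigen presentation by MHC class I gave 4 higher and 3 lower of 20, and 1 and 1 of 13 off the shifted chromosomes. The TNF receptor family gave 4 higher and 2 lower of 15, and 3 and 1 of 13 off them, with calls among them Tnfrsf26 and Tnfrsf10b, the TRAIL receptor, which lies on chromosome 14. The myeloid marker sums given above were also higher in gs2_F6, and their part in these lists was not tested.

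**Figure D5:**
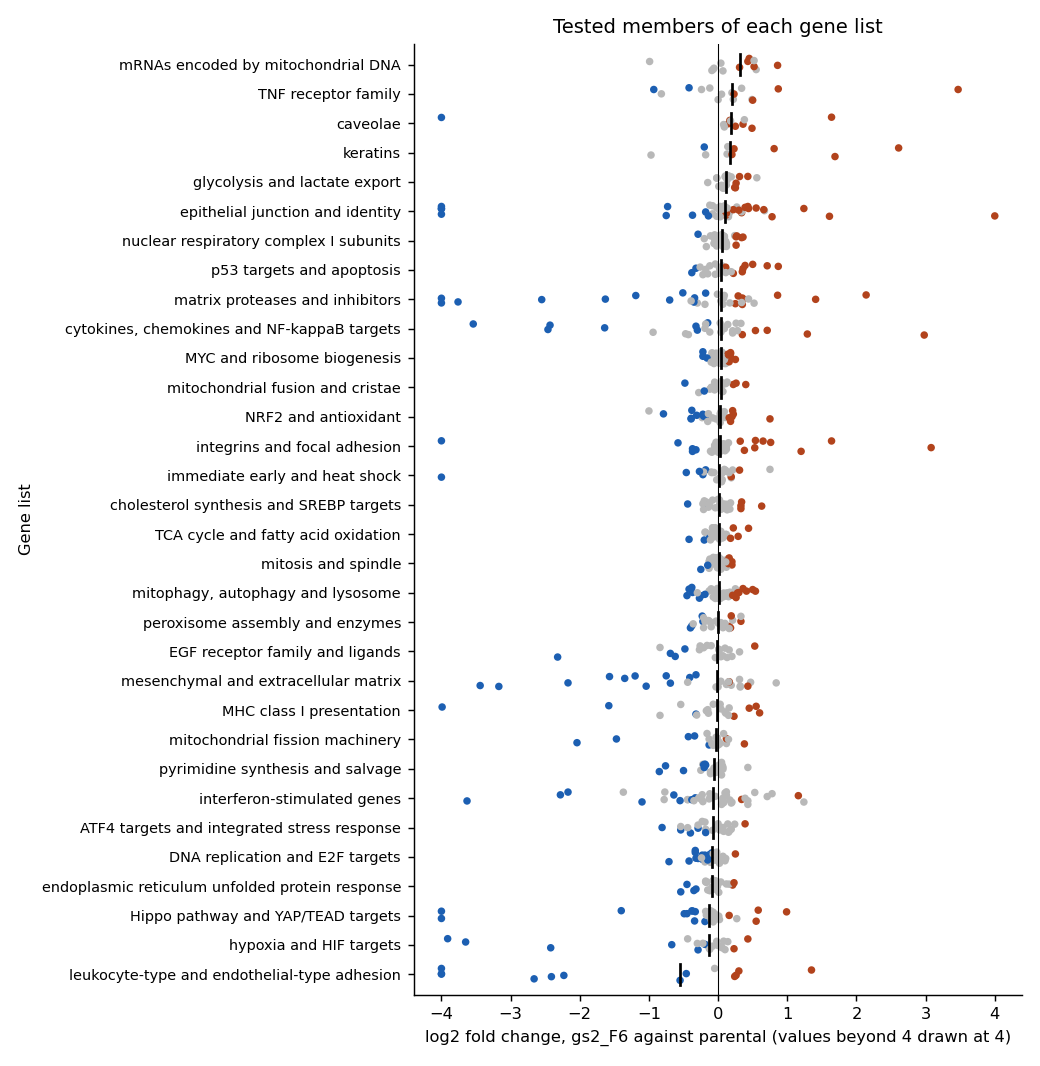
Log2 fold change of gs2_F6 against parental (horizontal axis, values beyond 4 drawn at 4) for the tested members of each gene list (rows, ordered by median), with genes called higher in red, called lower in blue and not called in gray, and the list's median as a black bar. The lowest median drawn is that of adhesion genes of the leukocyte and endothelial kind, at -0.55, and the highest that of messages of mitochondrial DNA, at 0.31.

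The second Fis1 clone gave a comparison within the genotype. Against gs1_B11, 6630 genes were called (47.6%), of which 3192 were higher (22.9%) and 3438 lower (24.7%) in gs2_F6. Fis1 itself differed by -0.29 ± 0.09 (SE, adjusted p = 0.014), with 17.1 CPM in gs2_F6 and 21.1 CPM in gs1_B11. The count is 6007 without gs1_B11 replicate 1. Chromosome X held part of it: 282 of its 421 tested genes were higher in gs2_F6 and 28 lower (median 0.72). On chromosome 9, 411 of 781 were lower and 45 higher (median -0.26), and on chromosome 2, 648 of 1090 were higher and 77 lower (median 0.34).

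Several matrix genes differed by more between the Fis1 clones than between gs2_F6 and parental. Integrins and focal adhesion genes gave 9 higher and 21 lower of 34 in gs2_F6, and matrix and mesenchymal genes 1 higher and 14 lower of 26. Fn1 stood at 438 CPM in gs2_F6 and 1968 CPM in gs1_B11 (log2 -2.17, adjusted p = 1.9e-13, edgeR), Tnc at 1.12 and 45.6 CPM (-5.34) and Col12a1 at 1.26 and 46.5 CPM (-5.21), and parental lay between the clones for all 3. Alcam stood at 35 CPM in parental and in gs1_B11 and at 0.618 CPM in gs2_F6. Dmd, dystrophin, and Arhgap28, a GTPase-activating protein, had 0 counts in gs2_F6 and were at least 169-fold and at least 201-fold lower than in gs1_B11, and at least 53.3-fold and at least 38.6-fold lower than in parental. Ubqln2, an ubiquilin that escorts proteins to the proteasome, encoded on chromosome X, stood at 44.2, 41.1 and 49.7 CPM in gs2_F6, 38.4, 36.0 and 32.0 CPM in parental and 0.167 CPM in gs1_B11 (8.03, adjusted p = 8.8e-16). Lncenc1, a long noncoding RNA, stood at 247, 246 and 261 CPM in gs2_F6, 57.0 CPM in parental and 9.57 CPM in gs1_B11, and Bcl2l15 at 199, 46.4 and 14.5 CPM in the same order. Some genes did not differ between the Fis1 clones beyond their spread: Mmp9 gave a log2 difference of 0.00 (adjusted p = 1.0) and Krt14 of 0.03 (adjusted p = 0.91). Cldn6, raised in gs2_F6, did differ and was higher still in gs1_B11, at 23.3 CPM (-2.0 ± 0.12, adjusted p = 4.3e-11, edgeR).

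Against the mean of the other 5 clones, 6944 genes were called (49.8%), 3625 higher (26.0%) and 3319 lower (23.8%). This comparison asks what set gs2_F6 apart from the clones as a group, parental left out. Interferon-stimulated genes gave 0 higher and 32 lower of 40 (median -0.86), whereas against gs1_B11 alone 11 were higher and 2 lower (median 0.34). Oasl1 stood at 1.56 CPM in gs2_F6 and at 3.47, 1.53, 4.53, 24.5 and 78.4 CPM in gs1_B11, gs1B8, gs2_B4, gs1_B4 and gs1_C8. For Oasl1 the Mff clones carry the high values, and the contrast weights the 5 clones equally. Mitosis genes gave 26 higher and 1 lower of 30 (median 0.23), glycolysis genes 16 and 1 of 20 (0.26) and nuclear subunits of complex I 19 and 0 of 36 (0.16). Antigen presentation by MHC class I gave 1 higher and 14 lower of 20 (-0.38). Against parental the medians were 0.02 for mitosis, 0.11 for glycolysis, 0.06 for complex I, -0.02 for MHC class I and -0.08 for interferon-stimulated genes. On chromosome X 282 of 421 genes were higher and 29 lower (median 0.46), and on chromosome 19, 280 of 478 were higher and 37 lower (median 0.23), where gs2_F6 lay near parental. On chromosome 9, 388 of 781 were lower and 67 higher (median -0.18).

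Among single genes, S100a4, an S100 protein tied to cell motility, stood at 614, 580.0 and 723 CPM in parental, rose to 1179, 1094 and 1096 CPM in gs2_F6 (log2 0.81 ± 0.11, adjusted p = 1.4e-05) and stood at 65.1 CPM in gs1_C8 to 677 CPM in gs1B8 among the other clones (2.62, adjusted p = 9.7e-16). Cav1 stood at 136 CPM in gs2_F6 and at 3.35 CPM in gs1_C8 to 104 CPM in gs1_B11 among the others (2.40). Tnxb, tenascin X, stood at 5.48, 4.66 and 5.08 CPM in gs2_F6 and at most 2.22 CPM elsewhere (3.24). Marcks was at 0.0891 CPM in gs2_F6 and 4.86 to 24.8 CPM in the others, Amot at 0.106 and 0.876 to 19.5 CPM, and Sema6a, a semaphorin, at 0.128 CPM and 4.52 to 21 CPM. For each of these 3 genes gs2_F6 was the lowest of the 6 clones. Parental means were 8.81 CPM for Marcks, 12.5 CPM for Amot and 1.32 CPM for Sema6a, so for Sema6a parental too lay below the other 5 clones.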

How the data were processed

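The authors extracted RNA with a TRIzol column kit and made poly-A libraries with a KAPA kit, per the labels' protocols. Reads were trimmed with Trimmomatic 0.35 and genes quantified with RSEM on GRCm38 (mm10), per the submitters' processing notes, with no version of RSEM and no aligner named. The deposited values are expected counts per gene, not normalized between libraries, and were rounded to whole numbers before fitting (91.5% were whole already). Of 27 library columns, 3 were not used. Libraries were grouped by column names, which give the clone code, and replicates are numbered by column order, which pairs nothing.

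The 21 knockout-arm libraries were fitted together in edgeR 4.0.16 (R 4.3.3) with 1 coefficient per clone, filterByExpr, TMM and the two-sided quasi-likelihood test. P-values were adjusted by Benjamini-Hochberg over all genes tested, with 0.05 as the threshold. Levels are CPM on TMM-scaled library sizes, and standard errors are those of the log2 fold change. DMSO levels use TMM factors computed apart, with the DMSO libraries added to the knockout arm. Depth limits genes under about 1 CPM, where a fold rests on few counts. Genes with 0 counts were set against a floor of 3 counts, and doing so changed 0 of the 4 list medians it touched. RSEM shares reads among near-identical genes, and strand use is not stated, so close copies and antisense pairs are uncertain. The fit was tested on simulated data.

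Members and gene lists were chosen with earlier results of these data known. The rule for named genes took Fis1, Dnm1l, Mff, Mfn1, Mfn2, Opa1 and Dhodh, the 15 highest and 15 lowest called genes with at least 5 CPM and no overlap, the 8 largest differences each way from gs1_B11 and from the other 5 clones, up to 4 called members of each of 38 lists, and all genes near 0. Further list members, genes near Fis1, Cdh1, Krt8, Krt18 and Itgb1 were named after their values were seen. Endothelial markers summed to 13.0 to 14.9 CPM in parental and 12.2 to 14.8 CPM in gs2_F6, lymphocyte markers to 1.72 to 1.88 and 2.44 to 3.32 CPM, and adipocyte markers to 0 to 0.322 and 0 to 0.171 CPM. Alternatives were DESeq2 1.42.0, its size factors, no low-count filter, only the groups compared, a block for runs of consecutive columns, no ribosomal RNA genes, 2 CPM for presence and each library left out in turn. Figures were drawn with matplotlib 3.10.9. Some list members are counted here but not reported by name.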

Additional observations from a re-analysis of the deposited data

Results flagged for a closer look

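These genes differed between the Fis1 clones gs2_F6 and gs1_B11 by the test of that difference in edgeR, and they are the 8 largest in each direction among called genes with at least 5 CPM in the higher clone and no overlap. Lower in gs2_F6, as log2 differences, were Arhgap28 (-10.6), Dmd (-10.36), Slc27a6 (-8.65), Eomes (-8.57), Marcks (-8.04), Sema6a (-6.70), Mal2 (-6.29) and Gng11 (-5.99). Arhgap28 and Dmd had 0 counts in gs2_F6, and their fitted values depend on the prior count and are not bounds. Higher in gs2_F6 were Ubqln2 (8.03), S100a14 (4.84), Slfn2 (4.82), Lncenc1 (4.71), Serpinb6b (3.91), Bcl2l15 (3.78), Aldh3a1 (3.32) and Capn5 (3.31). Against parental, Capn5 was not called (log2 0.29 ± 0.18, adjusted p = 0.26, edgeR). Slc27a6 had at most 0.762 CPM and Sema6a at most 1.76 CPM in any parental library.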

How the results depend on the processing

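Against parental, the count of 4365 called genes ran from 3596 to 4895 over 12 alternatives, and from 3596 to 4092 with 1 library left out. Against gs1_B11 the range was 5749 to 7058, and against the other 5 clones 5691 to 7330. Of the 4365 genes, 2679 (61.4%) were called with the same sign in all 12 alternatives, and no fold change of a named gene reversed among 2084 values, though in 35 of them the call was lost and in 18 gained. Of 988 counts of list members under the alternatives, 168 differed from those reported by more than 1.5 times, and of 240 chromosome medians 103 moved by more than the spread between replicates. The share of calls that were higher ran from 39.7% to 48.2%, against 41.8%. Medians on chromosomes 2, 8, 9, 10, 14 and 18 kept their sign, with chromosome 8 between -0.31 and -0.27. With presence from 2 CPM, 31 genes rather than 10 were near 0 in gs2_F6. Calls against parental were lost in some alternatives for Dhodh, Epcam, Micos13, Tpi1, Acads, Cebpb, Il1a, Ubqln2 and mt-Nd3, among others. No paired analysis was possible because nothing in the column names ties a library to a replicate number of the labels. A block for each run of consecutive columns, which is no such pairing, gave 4895 calls.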
